A study of Homo sapiens with 6 samples.

Results

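The set described here holds 10 genes tied to lipid peroxidation and to sensitivity to ferroptosis, a form of cell death driven by iron-dependent peroxidation of membrane lipids. They were chosen by name, as ANGPTL4, EMP1, ACSL4, ACSL3, LPCAT3, POR, CYB5R1, MBOAT1, MBOAT2 and CYBB, and all 10 were found among the 17211 genes of the deposited table. The data are poly(A) RNA-seq of CAOV2, which the labels give as a human ovarian cancer cell line and the sample titles call primary ovarian cancer cells. The siYAP group (3 libraries) received an siRNA reagent against YAP, the transcriptional co-activator encoded by YAP1 that the Hippo kinase pathway holds in check, and the siNT group (3 libraries) received a non-targeting siRNA. In both groups the transfection used 100 pmol of siRNA with 6 µL of a lipid carrier, lasted 2 days, and was followed by collection on day 3. Because the supplier of the siRNA differs between the groups, an effect of losing YAP and an effect of the reagent itself cannot be told apart. The libraries are labelled as biological replicates with no statement of separate cultures or days, so that p-values measure only the spread between these libraries, which may be technical.

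Ferroptosis depends on how many polyunsaturated acyl chains a membrane carries and on how fast these are oxidised. Acyl-CoA synthetases activate fatty acids, lysophospholipid acyltransferases place them in phospholipids, and oxidoreductases and NADPH oxidases supply the reactive oxygen that starts peroxidation. ACSL4 and LPCAT3 favour polyunsaturated chains and sensitise cells, whereas ACSL3, MBOAT1 and MBOAT2 favour monounsaturated chains and protect them. POR and CYB5R1 pass electrons from reduced nucleotides to oxygen and promote peroxidation. ANGPTL4 and EMP1 have been placed downstream of the YAP paralog TAZ and upstream of NADPH oxidases in cancer cells undergoing ferroptosis. The siYAP to siNT contrast asks which of these transcripts differ when YAP is silenced.

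The values are read counts divided by a single size factor per library. The reads behind them came to between 29029760 and 31790340 in siYAP libraries and between 25478595 and 28928432 in siNT libraries. The target, YAP1, had 278, 327 and 294 normalized counts in siYAP libraries, against 6221, 5801 and 5955 in siNT libraries, so that the siYAP mean was 5.00% of the siNT mean. WWTR1, which encodes TAZ, averaged 2414 ± 59.3 normalized counts in siYAP and 4278 ± 73.2 in siNT libraries (SD, n = 3 each) and was also lower (log2 fold change -0.83, limma, adjusted p = 7.40e-13). The labelled cell type was checked against 8 markers, of which 7 were measured. The epithelial keratin gene KRT8 averaged 33087 ± 1778 in siYAP and 35206 ± 1349 in siNT libraries and was not called. The keratin genes KRT7 (log2 -0.97) and KRT18 (-0.68) were lower in siYAP, and the epithelial adhesion genes EPCAM (0.74) and CDH1 (0.93) were higher. Of the ovarian markers, PAX8 averaged 17.1 ± 4.26 in siYAP and 28.8 ± 13.9 in siNT libraries, and MUC16 averaged 14.2 ± 4.28 in siYAP and 11.9 ± 3.67 in siNT libraries (SD, n = 3 each), both close to the floor. WT1 was not analysed here.

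ANGPTL4 and EMP1 fell by more than any other of the 10 genes, CYB5R1, MBOAT1 and POR fell by smaller amounts, MBOAT2 and ACSL4 rose, and ACSL3, LPCAT3 and CYBB did not pass the test. A gene was called where limma, fitted on log2(value + 1) over 17200 genes, gave a Benjamini-Hochberg adjusted p under 0.05. That made 2 of 10 members higher and 5 of 10 lower in siYAP, against 4 higher and 3 lower with the libraries scaled to equal totals. Over all tested genes 56.8% were called, 28.6% higher and 28.1% lower, and with so many genes called the 7 of 10 called members do not set the group apart. With equal totals 62.1% of all called genes were higher, against 50.4% in the fit used here. The groups did not overlap for 8 of the 10 members, beside 61.5% of all tested genes. The members' median log2 fold change was -0.10, beside 0.0036 over all tested genes, and their median absolute change was 0.20, beside 0.30. Thus 4 of the 10 genes differed by at least 0.25 on the log2 scale, beside 57.1% of all tested genes. In this bulk RNA, fewer cells with a transcript and less of it per cell cannot be told apart.

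**Figure D1:**
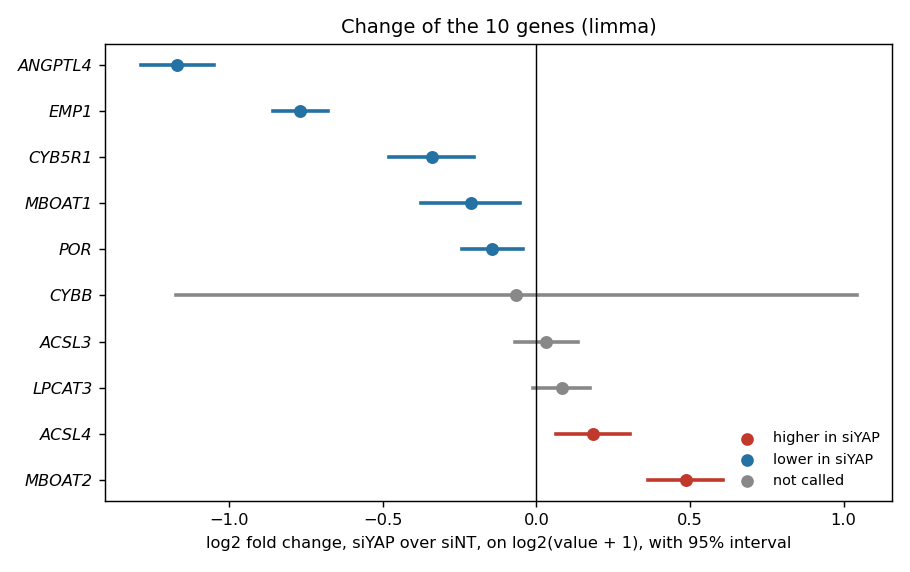
Log2 fold change of each of the 10 genes, siYAP over siNT, on the log2(value + 1) scale, with its 95% interval from limma (3 siYAP and 3 siNT libraries). ANGPTL4 at -1.17 and EMP1 at -0.77 lie farthest below 0, MBOAT2 at 0.49 lies farthest above it, and the interval of CYBB runs from -1.17 to 1.04.

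ANGPTL4 (ENSG00000167772, protein-coding, GRCh38 chromosome 19, 8363289 to 8374373, plus strand) encodes a secreted angiopoietin-like protein that inhibits lipoprotein lipase and is induced by fatty acids through PPAR nuclear receptors. EMP1 (ENSG00000134531, protein-coding, GRCh38 chromosome 12, 13196716 to 13219939, plus strand) encodes a membrane protein with 4 transmembrane spans, of the PMP22 and claudin-like family. The stretches of 250 bases before their RefSeq start sites are shown because these are the members that fell furthest and because their sequences differ in composition and in the short motifs searched. The ANGPTL4 stretch is chr19:8363905-8364154 (GRCh38.p14, plus strand), with a TATAAA box in capitals. The EMP1 stretch is chr12:13196476-13196725 (GRCh38.p14, plus strand), with matches to TGANTCA in capitals. TGANTCA stands for the AP-1 motif, with any base allowed at N.
ANGPTL4: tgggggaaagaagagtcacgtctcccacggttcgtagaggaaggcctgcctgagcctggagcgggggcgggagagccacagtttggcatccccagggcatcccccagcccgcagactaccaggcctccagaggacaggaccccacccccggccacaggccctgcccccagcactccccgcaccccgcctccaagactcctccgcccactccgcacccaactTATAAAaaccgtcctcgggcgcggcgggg
EMP1: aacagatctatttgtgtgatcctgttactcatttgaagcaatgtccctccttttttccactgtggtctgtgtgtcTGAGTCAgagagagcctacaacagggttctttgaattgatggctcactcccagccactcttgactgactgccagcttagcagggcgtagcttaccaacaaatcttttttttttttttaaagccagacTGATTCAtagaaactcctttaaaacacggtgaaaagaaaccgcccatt
The ANGPTL4 stretch had a GC content of 68.8% and the EMP1 stretch 42.4%. The TATAAA box of ANGPTL4 began 29 bases before the start, and the TGANTCA matches of EMP1 began 175 and 48 bases before it. Of 35116 promoters of this length in the RefSeq table, 10.7% held TATAAA and 6.57% held TGANTCA on either strand. The TEAD motif GGAATG, the sequence bound by the partners of YAP, was found in 11.9% of promoters and in neither of these stretches. Among the 7 members with an entry, the window of ACSL3 held a TEAD motif, 176 bases before its start. A CCAAT box, in 32.0% of promoters, was found in the windows of ACSL3, LPCAT3 and CYBB, and the windows of ACSL4 and MBOAT2 held none of the 4 motifs. POR, CYB5R1 and MBOAT1 had no entry. These matches describe letters in a window and say nothing of binding.

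ANGPTL4 had 673, 669 and 676 normalized counts in siYAP libraries, against 1422, 1546 and 1579 in siNT libraries. The siYAP libraries were almost equal and each lay far below every siNT library. The means were 673 ± 3.54 in siYAP and 1516 ± 82.9 in siNT libraries (SD, n = 3 each), and the siYAP mean was 44.4% of the siNT mean. ANGPTL4 fell by 1.17 on the log2 scale (standard error 0.0571, 95% interval -1.29 to -1.05, limma, adjusted p = 1.30e-13). Among 17200 tested genes it had the 309th largest fall, which places it in the lowest 1.80%. Its annotation overlaps the antisense gene RAB11B-AS1 by 1 exonic base.

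EMP1 had 4621, 4666 and 4861 normalized counts in siYAP libraries, against 8308, 7829 and 7963 in siNT libraries. All 3 siYAP libraries lay below the lowest siNT library. The means were 4716 ± 128 in siYAP and 8033 ± 247 in siNT libraries (SD, n = 3 each), and the siYAP mean was 58.7% of the siNT mean. EMP1 fell by 0.77 on the log2 scale (standard error 0.0431, 95% interval -0.86 to -0.68, limma, adjusted p = 1.38e-12), the 917th largest fall. No other listed gene shares its exons.

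**Figure D2:**
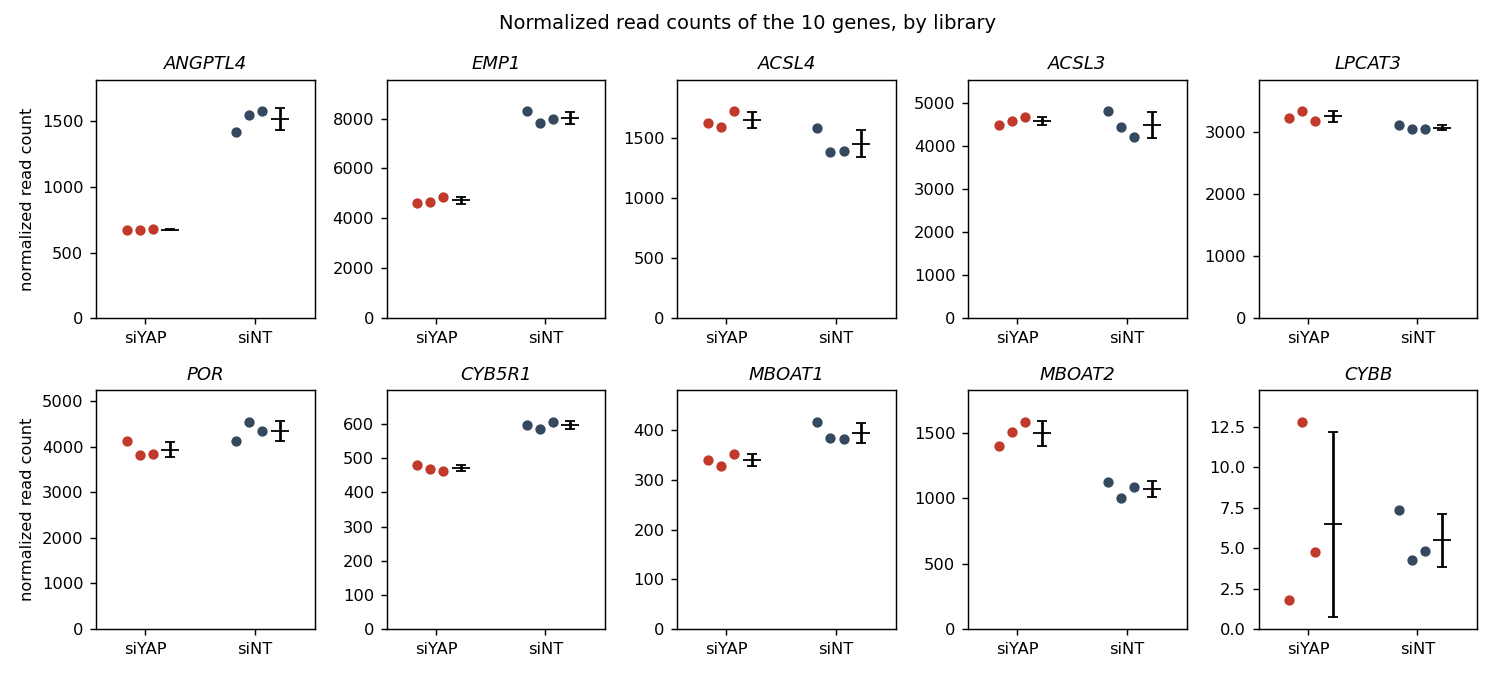
Normalized read counts of each of the 10 genes in every siYAP and siNT library, with the group mean and SD (n = 3 each). ANGPTL4 sits between 669 and 676 in siYAP and between 1422 and 1579 in siNT libraries, while the groups of ACSL3 and CYBB overlap.

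The synthetases that activate fatty acids showed a small difference for ACSL4 and none that passed the test for ACSL3. ACSL4 (ENSG00000068366, GRCh38 chromosome X, 109624244 to 109733403, minus strand), which activates arachidonic and adrenic acid for phospholipid synthesis, had 1624, 1589 and 1722 normalized counts in siYAP libraries, against 1578, 1383 and 1386 in siNT libraries. The groups did not overlap, but siYAP replicate 2 and siNT replicate 1 were nearly level. The means of 1645 ± 68.7 in siYAP and 1449 ± 112 in siNT libraries (SD, n = 3 each) gave a log2 fold change of 0.18 (standard error 0.0575, 95% interval 0.07 to 0.30, limma, adjusted p = 0.00897). With siNT replicate 3 left out ACSL4 was no longer called (adjusted p = 0.0563), nor was it without limma's variance trend (adjusted p = 0.0838).

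ACSL3 (ENSG00000123983, GRCh38 chromosome 2, 222860934 to 222944639, plus strand), a lipid droplet and endoplasmic reticulum synthetase that supplies monounsaturated chains, had 4479, 4587 and 4667 normalized counts in siYAP libraries, against 4815, 4435 and 4200.4 in siNT libraries. The siYAP libraries lay within the range of the siNT libraries. The log2 fold change was 0.03 with a 95% interval of -0.07 to 0.13 (limma, adjusted p = 0.606). With equal totals it was 0.12 and passed the test (adjusted p = 0.0486).

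LPCAT3 (ENSG00000111684, GRCh38 chromosome 12, 6976186 to 7018510, minus strand) encodes the acyltransferase that places polyunsaturated chains in phosphatidylcholine and phosphatidylethanolamine. It had 3222, 3334 and 3175 normalized counts in siYAP libraries, against 3109, 3042 and 3042 in siNT libraries. Each siYAP library was above each siNT library, yet by a margin too small to pass the test (log2 fold change 0.08, 95% interval -0.01 to 0.17, limma, adjusted p = 0.124). With equal totals the change was 0.17 and passed (adjusted p = 0.00263). LPCAT3 shares 3100 exonic bases with EMG1, a ribosome biogenesis gene on the opposite strand. EMG1 averaged 2024 ± 11.7 in siYAP and 2766 ± 119 in siNT libraries (SD, n = 3 each) and was lower by a log2 of -0.45 (limma, adjusted p = 4.16e-08). The kit was stranded, but the strand setting of the counting is not given in the sources used here, so how far EMG1 reads enter the LPCAT3 value was not tested.

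The MBOAT1 and MBOAT2 paralogs, which place monounsaturated chains in phosphatidylethanolamine, moved in opposite directions. MBOAT2 (ENSG00000143797, GRCh38 chromosome 2, 8852690 to 9003813, minus strand) had 1396, 1505 and 1586 normalized counts in siYAP libraries, against 1120.4, 1000.5 and 1083 in siNT libraries. Every siYAP library stood clear of the siNT range. The means were 1496 ± 95.8 in siYAP and 1068 ± 61.3 in siNT libraries (SD, n = 3 each), and MBOAT2 rose by a log2 of 0.49 (standard error 0.0594, 95% interval 0.36 to 0.61, limma, adjusted p = 3.67e-07).

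MBOAT1 (ENSG00000172197, GRCh38 chromosome 6, 20102145 to 20212399, minus strand) had 339.8, 329 and 352 normalized counts in siYAP libraries, against 418, 385 and 382 in siNT libraries. The groups were separate, with siNT replicate 1 the highest. MBOAT1 averaged 340.1 ± 11.6 in siYAP and 395 ± 19.96 in siNT libraries (SD, n = 3 each) and fell by 0.21 on the log2 scale (standard error 0.0775, 95% interval -0.37 to -0.05, limma, adjusted p = 0.0227). The call was lost without siYAP replicate 2 (adjusted p = 0.0917), without siNT replicate 1 (0.0881), with equal totals (0.177, log2 -0.13) and with DESeq2 (0.0578).

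The oxidoreductases POR and CYB5R1 were both lower in siYAP. CYB5R1 (ENSG00000159348, GRCh38 chromosome 1, 202961869 to 202967280, minus strand), a cytochrome b5 reductase family member that uses NADH, had 481, 469.8 and 463 normalized counts in siYAP libraries, against 599, 586 and 608 in siNT libraries. The spread within each group was small beside the distance between them. The means of 471 ± 9.10 in siYAP and 598 ± 11.1 in siNT libraries (SD, n = 3 each) differed by a log2 of -0.34 (standard error 0.0659, 95% interval -0.48 to -0.20, limma, adjusted p = 0.00013).

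POR (ENSG00000127948, GRCh38 chromosome 7, 75899200 to 75986855, plus strand), the NADPH reductase that serves the microsomal cytochrome P450 enzymes, had 4117, 3824 and 3848 normalized counts in siYAP libraries, against 4118, 4551 and 4354 in siNT libraries. The highest siYAP and the lowest siNT library were level to within about 1 count. The means were 3929.6 ± 163 in siYAP and 4341 ± 217 in siNT libraries (SD, n = 3 each), and POR fell by 0.14 on the log2 scale (95% interval -0.24 to -0.04, limma, adjusted p = 0.0146). Among other alternatives, the call was lost without siYAP replicate 2 (adjusted p = 0.0873), without siNT replicate 2 (0.0955), with equal totals (0.325, log2 -0.06) and without the variance trend (0.0985). POR shares 19 exonic bases with TMEM120A on the opposite strand, which averaged 771 ± 48.4 in siYAP and 434 ± 18.2 in siNT libraries.

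CYBB (ENSG00000165168, GRCh38 chromosome X, 37780011 to 37813461, plus strand) encodes gp91phox, also called NOX2, the electron-transferring subunit of the phagocyte NADPH oxidase. It had 2, 13 and 5 reads in siYAP libraries, against 7, 4 and 4 reads in siNT libraries, or 20 reads over siYAP and 15 over siNT libraries. These are close to the floor, and siYAP replicates 1 and 2 were the lowest and the highest of the 6 libraries. In normalized counts the means were 6.47 ± 5.71 in siYAP and 5.48 ± 1.63 in siNT libraries (SD, n = 3 each), with adjusted p = 0.929 in limma. No difference in CYBB was detectable at this depth, and the 95% interval of its log2 fold change, -1.17 to 1.04, spans both directions. Of 10 phagocyte markers 4 were measured, and their summed level was 135 to 158 normalized counts in siYAP and 151 to 161 in siNT libraries. Of these LYZ and CD68 were lower, CD14 was higher, a call lost with DESeq2 and without siYAP replicate 1 or siNT replicate 1, ITGAM was not called, and the pan-leukocyte gene PTPRC was not analysed here.

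Per kilobase of annotated exon, the genes fell into a different order in the groups. In siYAP libraries LPCAT3 led with 687 normalized counts per kilobase, followed by POR at 643, ACSL3 at 632 and EMP1 at 602, and the libraries of neighbours in this order overlapped. ANGPTL4 came next at 271 ± 1.43, then ACSL4 at 256, MBOAT1 at 189.6, MBOAT2 at 170.0, CYB5R1 at 105 and CYBB at 1.46, with no overlap between neighbours from EMP1 down. In siNT libraries EMP1 led with 1025 ± 31.5, followed by POR at 710.3, LPCAT3 at 648, ACSL3 at 619 and ANGPTL4 at 611. EMP1, which led in siNT libraries, was thus below LPCAT3, POR and ACSL3 in siYAP libraries, and ANGPTL4, level with ACSL3 in siNT libraries, was close to ACSL4 in siYAP libraries. The lower part of the siNT order was ACSL4 at 226, MBOAT1 at 220.1, CYB5R1 at 133, MBOAT2 at 121 and CYBB at 1.24. In the siNT order, LPCAT3 and ACSL3, ACSL3 and ANGPTL4, and ACSL4 and MBOAT1 overlapped.

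**Figure D3:**
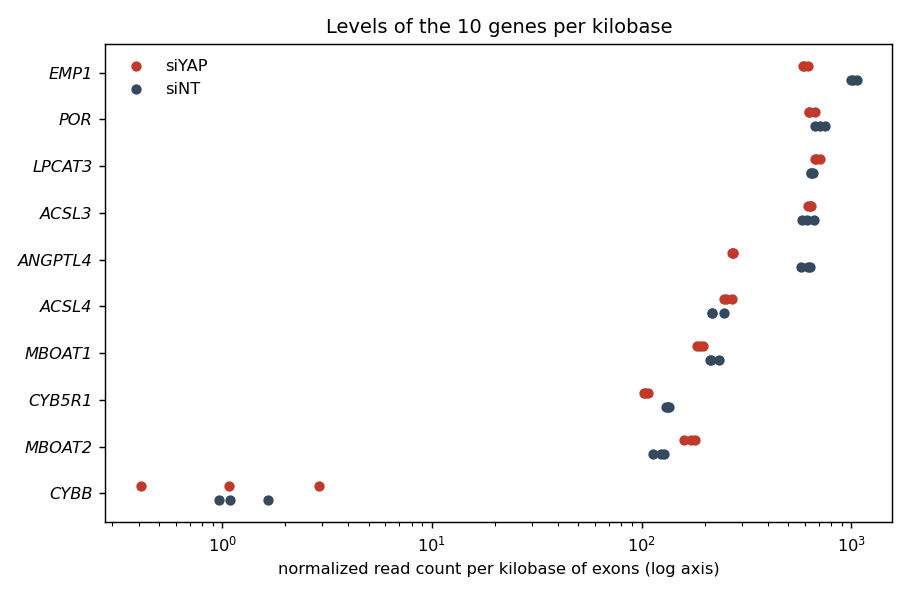
Normalized read counts per kilobase of annotated exon for each of the 10 genes on a log axis, with each siYAP and siNT library as a point. EMP1 averages 602 in siYAP and 1025 in siNT libraries, and CYBB lies near 1 in both groups.

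The balance within pairs of related members was taken as a ratio inside each library, which does not depend on the scaling of that library. The ratio of MBOAT2 to MBOAT1 counts was 4.11, 4.58 and 4.51 in siYAP libraries, against 2.68, 2.60 and 2.83 in siNT libraries. Its mean was 4.398 ± 0.255 in siYAP and 2.71 ± 0.120 in siNT libraries (SD, n = 3 each), 1.62-fold higher in siYAP. The ratio of ACSL4 to ACSL3 was 0.359 ± 0.0116 in siYAP and 0.323 ± 0.00987 in siNT libraries, a log2 difference of 0.15. All 3 siYAP libraries were above all 3 siNT libraries for this ratio as well. The ratio of POR to CYB5R1 was 8.33 ± 0.210 in siYAP and 7.27 ± 0.457 in siNT libraries, a log2 difference of 0.20, again without overlap. In each of the 3 pairs the two-sided exact permutation p was 0.1, adjusted 0.1 over the pairs, which is the smallest that 3 against 3 libraries allow.

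**Figure D4:**
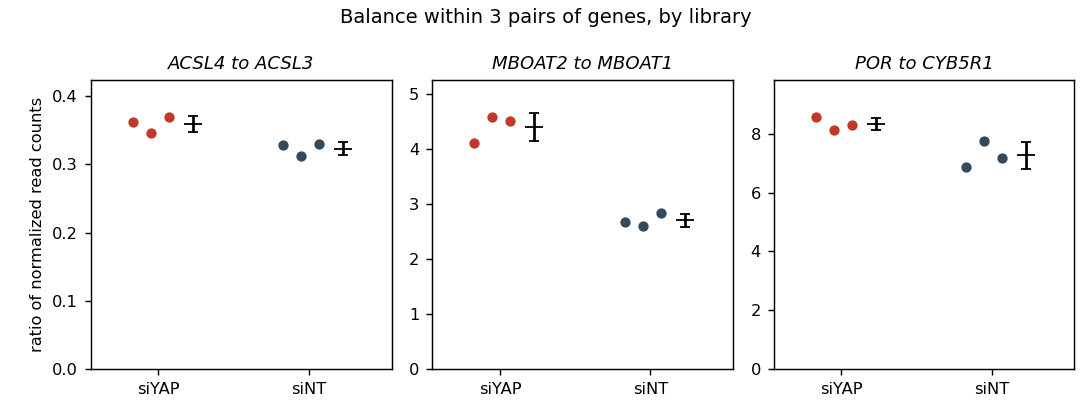
Ratio of normalized read counts within each library for ACSL4 to ACSL3, MBOAT2 to MBOAT1 and POR to CYB5R1, with the group mean and SD (n = 3 siYAP and 3 siNT libraries). The siYAP points lie above the siNT points in each panel, with the largest relative difference, 1.62-fold, for MBOAT2 to MBOAT1.

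The genes most like ANGPTL4 and EMP1 were found as those with the smallest root mean square difference over the 6 libraries, in log2 values centred on each gene's mean, among the 12117 genes that averaged 50 or more normalized counts. For ANGPTL4 these were BCAR3 (0.0248), an adaptor of integrin signalling, IER3 (0.0295), an early response gene, GOLGA7B (0.0362), which assists a palmitoyltransferase, COL6A2 (0.0411), a collagen VI chain, and PRSS3 (0.0423), a trypsinogen. Their log2 fold changes ran from -1.24 to -1.12. For EMP1 they were TASOR (0.0144), of the HUSH silencing complex, EIF4G2 (0.0203), a translation initiation factor, ZNF106 (0.0206), ZDHHC4 (0.0213), a palmitoyltransferase, and NEMP2 (0.0236). Their log2 fold changes ran from -0.80 to -0.76. With 2 groups, the measure mostly picks genes with the same fold change. BCAR3, IER3, TASOR, EIF4G2 and NEMP2 overlap exons of a listed gene on the other strand, and PRSS3 has close paralogs among which reads could be split.

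An earlier search of these libraries tied 3 heptamers in 3′ UTRs, TTCTTAA along with GAGAGGA and also GATAAAG, to lower expression in siYAP. They were chosen on the same fold changes and are given as a description. The 3′ UTR of EMP1 (5248 bases) held GATAAAG at positions 2599 and 3488 and TTCTTAA at position 5110, counted from its first base. That of MBOAT2 (5989 bases) held TTCTTAA at positions 565, 750 and 3003. The sites of these 2 genes are shown, since EMP1 fell and MBOAT2 rose, with the heptamer in capitals (GENCODE transcripts, GRCh38).
EMP1 2599: ataaggactgGATAAAGactgcatatc
EMP1 3488: atggttaataGATAAAGatcccactct
EMP1 5110: tctaaaaattTTCTTAAgttgtttgct
MBOAT2 565: ttgaagggttTTCTTAAagtatgtcaa
MBOAT2 750: cttattctttTTCTTAAaagagagagg
MBOAT2 3003: gctcattctgTTCTTAAagtaagtatt
ACSL4 held TTCTTAA and GATAAAG, ACSL3 held TTCTTAA and GAGAGGA, CYBB held TTCTTAA at 2 places, and the shorter 3′ UTRs of ANGPTL4 (487 bases), LPCAT3 (718), POR (374), CYB5R1 (658) and MBOAT1 (141) held none. Over 11393 genes averaging 50 or more normalized counts, 37.0% held at least 1 of the 3. Of those, 37.8% were called lower in siYAP, beside 33.7% of the genes with none. The shares called higher were 33.0% with a heptamer and 34.5% with none. The median 3′ UTR was 2518 bases long with a heptamer and 689 with none, so the 2 classes also differ in length. The larger fall, that of ANGPTL4, was thus in a gene without a heptamer in the transcript searched. What part the heptamers have in these changes was not tested.

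Genes around the members were taken from lists of their pathways. Of 109 such genes tested besides the 10 members, 44 were higher and 28 lower in siYAP, beside 28.6% higher and 28.1% lower over all tested genes. In the angiopoietin-like and lipoprotein lipase list, 5 of 10 tested genes rose and 2 fell (median log2 0.28, beside 0.0036 over all genes), and with equal totals 8 were higher. ANGPTL2, a secreted glycoprotein of the ANGPTL4 family, was higher in siYAP, where ANGPTL4 was lower. It averaged 2352 ± 162 normalized counts in siYAP and 753 ± 34.1 in siNT libraries (SD, n = 3 each; log2 1.64, limma, adjusted p = 8.16e-16). VLDLR, a receptor for triglyceride-rich lipoproteins, averaged 1256 ± 38.8 in siYAP and 324 ± 12.1 in siNT libraries (log2 1.95). ANGPTL1, ANGPTL5, ANGPTL6, ANGPTL7, ANGPTL8 and LPL were not analysed here. Of the pathway genes named in this and the following paragraphs, VLDLR, EMP3, SLC27A2, ACSL5, ALOX12B and CYBC1, like the markers KRT7, KRT8, KRT18, PAX8 and CD68, overlap exons of another listed gene on the other strand, and with the strand setting unknown their values are uncertain to that extent.

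ANGPTL4 is also a PPAR target. The list of PPAR targets, which also holds the PPAR receptors and RXRA, was mixed, with 9 of 17 tested genes higher and 6 lower (median log2 0.19). FABP4, a fatty acid carrier, fell to 281 ± 25.6 normalized counts in siYAP, against 1105 ± 44.9 in siNT libraries (log2 -1.98), and the lipid droplet coat gene PLIN2 fell to 2559 ± 44.7 in siYAP, against 5669 ± 168 in siNT libraries (log2 -1.15). The receptors themselves, already counted in that list, differed in direction. PPARA (log2 1.14) and PPARD (0.44) were higher, and PPARG (-0.29) and their partner RXRA (-0.48) were lower. For the EMP1 family, EMP3 (log2 -0.25) and PMP22 (-0.17) were lower by less than EMP1, EMP2 was not called (log2 -0.01), and 2 of 4 tested genes were lower in all. With equal totals PMP22 was no longer called.

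In the synthetase list around ACSL4 and ACSL3, 4 of 9 tested genes rose and 2 fell (median log2 0.40). ACSL1, a synthetase feeding both oxidation and triglyceride synthesis, averaged 387 ± 22.2 in siYAP and 221 ± 17.05 normalized counts in siNT libraries (SD, n = 3 each; log2 0.80). SLC27A2, a very-long-chain synthetase, rose by a log2 of 0.74, and ACSL5 fell by 0.30. Among 18 enzymes of phospholipid remodelling and synthesis, listed around LPCAT3 and the MBOAT genes, 8 rose and 4 fell (median log2 0.08). The 4 that fell were MBOAT7 and the phosphatidic acid synthesis genes AGPAT1, AGPAT2 and AGPAT4, while AGPAT5 rose and AGPAT3 was not called. LPCAT1, which places saturated chains in phosphatidylcholine, averaged 13279.8 ± 381 in siYAP and 7342 ± 102 in siNT libraries (log2 0.85). LPGAT1 (log2 0.72) was higher, and AGPAT2, which makes phosphatidic acid, was lower (-0.49).

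Of 13 electron transfer genes listed around POR and CYB5R1, 5 rose and 3 fell (median log2 0.05). Not all of these are microsomal, since the list includes the mitochondrial FDX1, FDXR and CYB5B and the cytosolic NQO1, MTRR and NDOR1. NQO1, a quinone reductase, averaged 6743 ± 223 in siYAP and 4011 ± 44.8 in siNT libraries (SD, n = 3 each; log2 0.75). CYB5A, the microsomal cytochrome b5, was higher (log2 0.53), and CYB5R4, a fused cytochrome b5 and reductase, was lower (-0.54). CYB5R3, the major cytochrome b5 reductase, was higher (0.18), opposite to CYB5R1, except that it was not called without the variance trend (adjusted p = 0.0627).

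Around CYBB, 4 of 10 tested NADPH oxidase genes were higher and 3 lower (median log2 0.10). The RAC GTPases, which bind the assembled oxidase and also drive actin remodelling, were lower. RAC1 averaged 3625 ± 143 in siYAP and 8184 ± 393 in siNT libraries (SD, n = 3 each; log2 -1.17, limma, adjusted p = 4.85e-15), and RAC2 averaged 564 ± 16.1 in siYAP and 1455 ± 79.4 in siNT libraries (log2 -1.36). CYBA, the membrane partner p22phox, averaged 5225 ± 244 in siYAP and 5878 ± 385 in siNT libraries and was called lower (log2 -0.17), with overlapping groups. CYBA lost that call with equal totals (adjusted p = 0.164), without the variance trend (0.0937) and without siNT replicate 2 (0.0590). Its chaperone CYBC1 was not called. NOX1, NOX4, NCF1 and NCF4 were not analysed here.

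**Figure D5:**
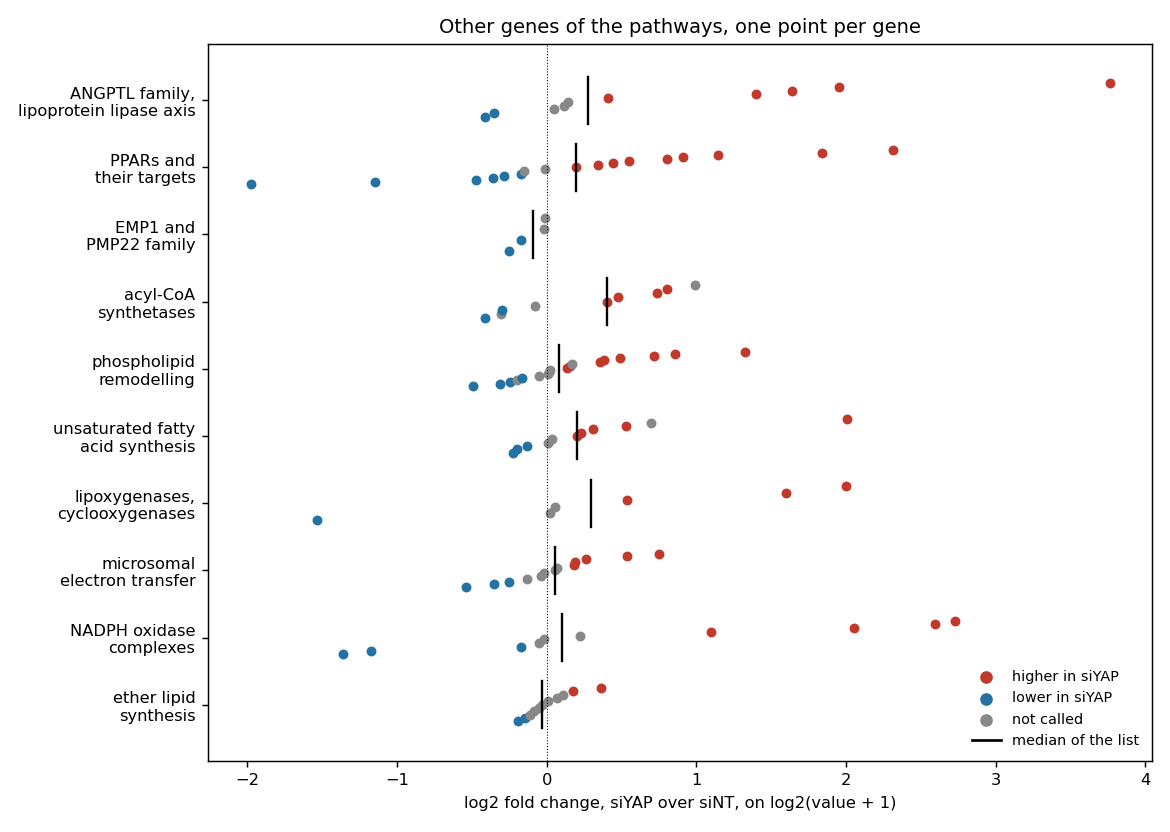
Log2 fold change, siYAP over siNT, of each tested gene in the pathway lists, with called genes coloured by direction and the list median marked. The medians run from -0.09 in the EMP1 and PMP22 family to 0.40 in the acyl-CoA synthetases over the 10 lists shown, and each list but the EMP1 and PMP22 family has genes on both sides of 0. The microsomal electron transfer row also holds mitochondrial and cytosolic proteins, and the phospholipid remodelling row also holds AGPAT genes of phosphatidic acid synthesis.

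Among the lipoxygenase and cyclooxygenase genes, which oxidise polyunsaturated chains enzymatically, 3 of 6 tested genes were higher and 1 lower (median log2 0.30). PTGS2, a cyclooxygenase whose transcript is widely used as a marker of ferroptosis, had 359, 367 and 396 normalized counts in siYAP libraries, against 1186, 998 and 1077 in siNT libraries. The siYAP mean was 34.4% of the siNT mean (log2 -1.53, standard error 0.0713, limma, adjusted p = 5.77e-14). Ferroptosis itself was not measured in these libraries, and what the fall of PTGS2 reflects was not tested. The genes that rose were at low levels, with ALOX12B at 35.3 ± 9.62 in siYAP and 10.7 ± 1.25 in siNT libraries and PTGS1 at 20.5 ± 2.34 in siYAP and 4.38 ± 0.810 in siNT libraries (SD, n = 3 each). ALOX5, ALOX12 and ALOX15 were not analysed here.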

How the data were processed

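The deposited table holds a signal value per gene and library, which the authors made as normalized read counts. The submitters' processing notes name FastQC, HISAT2, HTSeq and DESeq2, and hg19 and mm9 as builds. Versions, annotation, the strand setting and any filter were not given in the sources used here. In every library 100% of values were whole multiples of 1 read within 0.01 of a read, and 1 read was worth 0.906 to 1.21 normalized counts.

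Values were tested as log2(value + 1), which understates the change of low genes, with limma 3.58.1 in R 4.3.3 (trend and robust), for the 17200 genes that reached 1 in 3 or more libraries. P-values were adjusted by Benjamini-Hochberg over all tested genes and called under 0.05. The design had group alone, taken from the labels. Ratios were compared by exact permutation tests. Alternatives were other scalings, filters and pseudocounts, no variance trend, a block for the replicate number, each library left out, and edgeR 4.0.16 (4916 genes higher and 4655 lower of 15659) and DESeq2 1.42.0 (4393 higher and 4385 lower) on recovered reads.

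The members and the 13 further lists (130 of the 166 symbols in all measured) were chosen with earlier results of these data known. From each list, up to 3 called genes with the smallest adjusted p were named, beside genes that a result turns on; some genes so chosen, and 1 list, are not reported here. PPARA, PPARD, PPARG, RXRA, EMP2, CYB5R3, CYBA, CYBC1, SCD, ELOVL5, FADS1 and CDH1 were named after their values were seen. Ensembl identifiers were given symbols from a human gene name table (16662 of 17211 matched). Positions, exonic lengths and 3′ UTRs are from GENCODE 29 on GRCh38, matched by identifier, and promoters are from RefSeq (GRCh38.p14; 7 of 10 members matched). The limma step was tested on simulated data. No library duplicated another, since counts within a group differed beyond sampling noise (chi-square 2.75 to 7.50 per degree of freedom).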

Additional observations from a re-analysis of the deposited data

How the results depend on the processing

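ANGPTL4 (log2 -1.21 to -1.08), EMP1 (-0.79 to -0.68), CYB5R1 (-0.36 to -0.25) and MBOAT2 (0.44 to 0.57) kept their direction and call under all 16 alternatives. The number of members called higher was 1 without limma's trend and 4 with equal totals, and the number called lower was 3 with equal totals. With equal totals the median log2 of all genes was 0.090, against 0.0036, with 6050 genes higher and 3700 lower, against 4926 and 4841. Leaving out each library gave 1 to 2 members higher (1 without siNT replicate 3) and 3 to 5 lower (3 without siYAP replicate 2). With the replicate number as a block, 4654 genes were higher and 4487 lower, and POR was no longer called (adjusted p = 0.0534). The labels give same-numbered libraries only a shared number. Same-numbered libraries deviated with correlations of -0.338, -0.00827 and -0.0685, and differently numbered ones with -0.269 to 0.317. Taken within groups of 3 libraries, these correlations cannot decide whether any libraries shared a batch. Log2 ratio differences ran from 0.13 to 0.18 for ACSL4 to ACSL3, from 0.67 to 0.75 for MBOAT2 to MBOAT1 and from 0.16 to 0.25 for POR to CYB5R1. For 75 named genes, 1160 alternative values stayed on the same side of the test threshold, 27 lost the call and 10 gained it. The log2 value of CYBB changed sign between alternatives (-0.66 to 0.49) and edgeR did not test it, that of ACSL3 was -0.01 without siNT replicate 3, and those of EMP2 and CYBC1 also changed sign, none of the 4 genes being called there. The causes of these shifts were not tested. CYBB, PAX8 and MUC16 rest on few reads.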

Other observations

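Among 11 tested genes of unsaturated fatty acid synthesis, 5 were higher and 3 lower in siYAP (median log2 0.20). ELOVL7, an elongase of saturated and monounsaturated chains, averaged 182 ± 14.6 normalized counts in siYAP and 44.5 ± 3.78 in siNT libraries (SD, n = 3 each; log2 2.00, limma, adjusted p = 3.65e-11). FADS2, the desaturase that starts polyunsaturated fatty acid synthesis, averaged 3919 ± 198 in siYAP and 2722 ± 316 in siNT libraries (log2 0.53), and its exons overlap those of FADS1 on the other strand and of FEN1 on the same strand. ELOVL6 was also higher (0.31). The desaturase SCD, which makes monounsaturated chains, averaged 16689.9 ± 289 in siYAP and 19124 ± 890.3 in siNT libraries (log2 -0.20), and ELOVL5, an elongase of polyunsaturated chains, was lower (-0.23). FADS1, the partner of FADS2, was not called (log2 0.04, limma, adjusted p = 0.482) but was with equal totals (0.12, adjusted p = 0.0140).

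Of 11 tested genes of ether phospholipid synthesis, which supplies further polyunsaturated phospholipids, 2 were higher and 2 lower (median log2 -0.03), against 4 and 0 with equal totals and 1 and 0 without limma's trend. GNPAT, the peroxisomal enzyme that starts the pathway, averaged 1799 ± 55.2 in siYAP and 1397 ± 21.9 in siNT libraries (SD, n = 3 each; log2 0.36). FAR1, the fatty alcohol reductase, had 2109.6, 2393 and 2468 normalized counts in siYAP libraries, against 2974, 2538 and 2457 in siNT libraries, and the groups overlapped (log2 -0.19). The calls of FAR1 and of TMEM164 (log2 -0.15), the acyltransferase of ether lipids, were lost with equal totals and without limma's trend. The call of FAR1 was also lost without siYAP replicate 1 or siNT replicate 1, and that of TMEM164 without siYAP replicate 2 or siNT replicate 3.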
